A study of Mus musculus with 2 samples.

Results

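The network of Myc, Max and their partner transcription factors was followed in native RNA of mouse retinal organoids, as 9 genes: Mycn, Myc, Mycl, Max, Mxd3, Mxd4, Mnt, Mga and Mlx. They were selected by gene symbol in the table named plus of each library, and a site was a listed position with at least 20 reads in replicate 2, with the value of replicate 1 given wherever the same position of the same transcript was listed there. By this rule 25 of the 16212 sites of the series belong to the network, and they fall in 5 genes: Mycn and Max with 7 each, Mycl with 6, Mxd4 with 3 and Mnt with 2. Myc, Mxd3 and Mlx were listed under 20 reads only, and no position of Mga was listed in either replicate. The data come from 2 direct RNA nanopore libraries of day 6 organoids that form 1 group (n = 2), grown from the wild-type Rx:GFP mouse line in medium with AGN at 0.1 µM for 6 days. Both libraries received AGN and there is no second condition, so no contrast between conditions was made. The labels do not say whether the replicates are separate cultures, and the spread between them may be technical.

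MYC, MYCN and MYCL are basic helix-loop-helix leucine zipper proteins that activate growth, ribosome and cell cycle genes once they pair with MAX. MAX is the shared partner of the network and also pairs with MXD proteins, MNT and MGA, which repress the same E-box elements, while MLX pairs with a parallel set of partners. In the embryonic retina Mycn is the family member best known for driving progenitor growth. N6-methyladenosine (m6A) is an internal mark of messenger RNA, and the MYC message is a textbook target of the m6A readers of the IGF2BP family.

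Each listed position carries a motif of 5 bases, shown here because the fractions of the network divided by its last letter. The deposited tables hold 4 motifs, given here with a capital at the adenosine that carries m6A in this consensus.
A-ending motif: ggAca
C-ending motif: ggAcc
T-ending motif with G first: ggAct
T-ending motif with A first: agAct
The first is GGACA, called the A-ending motif below, and the remaining 3 are called the other motifs. Which base of the motif the listed position marks is not stated. All positions are counted from the start of the named Ensembl transcript, so every site is exonic. Their place in coding or untranslated sequence was not analysed here.

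Replicate 1 listed 26441 positions and replicate 2 listed 50099, with median coverages of 10 and 12 reads. Coverage is the number of reads over a position, and nothing under 5 reads was listed. The fraction modified runs from 0 to 1. Its denominator is not given and was not the coverage at most positions, so no read counts, intervals or detection limits were derived from it. Of the markers of the eye field and early retina, 6 of 7 were listed in both replicates. None of 5 pluripotency markers and none of 5 endoderm and mesoderm markers was listed, and Tubb3 was the only one of 4 neuronal markers, at no more than 17 reads.

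Coverage separated the 9 genes before any fraction was read. In replicate 2, 8 of them were listed and 5 reached 20 reads at some position, against 48.6% of all genes listed there. The highest coverage in replicate 2 was 26 reads in Max, 24 in Mycn, 22 in Mxd4, 21 in Mycl and 20 in Mnt. Neighbours in this order differ by 1 or 2 reads. Myc reached 9 reads, Mxd3 5 and Mlx 5.

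In replicate 1, 5 of the 8 genes were listed as well, against 66.5% of all listed genes that appear in both tables. The order was not the same. Mycn led with 12 reads, followed by Mxd4 with 9, Max with 7, Mlx with 6 and Mycl with 5. No position of Myc, Mxd3 or Mnt was listed in replicate 1. The ratio of coverage, replicate 2 over replicate 1, was taken at sites with both values. Its median was 4.33 in Max (6 sites), 4.10 in Mycl (2 sites), 2.44 in Mxd4 (1 site) and 2.18 in Mycn (7 sites). Over all genes it was 2.33 at sites with 20 to 26 reads in replicate 2. In bulk RNA of this kind, fewer expressing cells and less RNA per cell cannot be told apart.

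**Figure D1:**
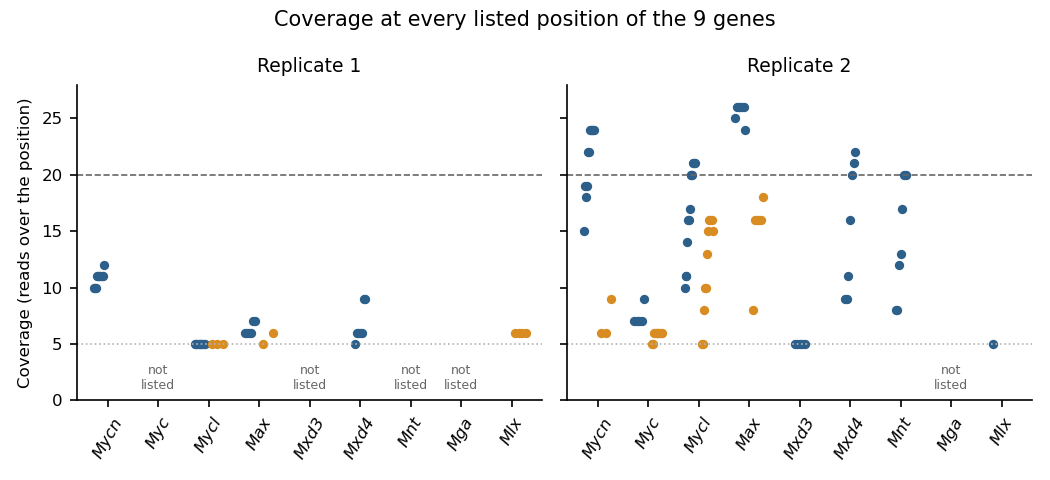
Coverage in reads (vertical axis) at every listed position of the 9 genes, with 1 point per position and a second colour for a second transcript; the dashed line marks 20 reads and the dotted line the 5 reads from which positions were listed. Only replicate 2 has points at or above 20 reads, in Mycn, Mycl, Max, Mxd4 and Mnt.

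No position of the network reached 20 reads in replicate 1. Across all genes, 32.2% of the sites of replicate 2 did, and of those with 20 to 26 reads in replicate 2 1.38% did. Of the 25 sites, 16 were listed in replicate 1 at all, with 5 to 12 reads. This was so for 74.8% of all sites and for 63% of those with 20 to 26 reads in replicate 2, the range of the 25. The minimum divides neighbouring values. Just inside it, at exactly 20 reads, were both sites of Mnt, position 2720 of Mxd4 and positions 2370, 2495 and 2998 of Mycl. Just outside it, with 19 reads, were positions 516 and 939 of Mycn, with fractions of 0.231 and 0 in replicate 2.

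Mycn (chromosome 12, 12986094 to 12991915, as deposited) encodes the MYC protein of neural progenitors. Its 7 sites lie on transcript ENSMUST00000043396.14 between positions 1494 and 2009. All of them were listed in both replicates, with 11 or 12 reads in replicate 1 and 22 to 24 in replicate 2. The mean fraction over the sites was 0.442 in replicate 1 and 0.461 in replicate 2 (0.451 ± 0.0133, SD, n = 2). The gene mean therefore moved little between libraries, while single sites moved much more. Replicate 2 was higher at 3 of them, lower at 3 and equal at 1, and such differences average out in the mean.

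The highest site of Mycn was the GGACA at position 1778, with 0.909 in replicate 1 and 0.882 in replicate 2 (0.896 ± 0.0189, SD, n = 2). The AGACT at position 1494 gave 0.667 in both replicates. This value lay at the 88.9th percentile of all AGACT sites of replicate 2, the highest rank of any Mycn site within its own motif. The lowest was the GGACC at position 1584, with 0 and 0.176 (0.0883 ± 0.125, SD, n = 2). Position 1754, a GGACT, gave 0.6 and 0.385. These 4 sites kept the same order in both libraries.

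The other 3 GGACA sites of Mycn were low for their motif in replicate 2. Position 1503 gave 0.750 in replicate 1 and 0.385 in replicate 2, position 1905 gave 0.167 and 0.313, and position 2009 gave 0 and 0.417. In replicate 2 they ranked at the 27.7th, 21.7th and 30th percentile of all GGACA sites. Positions 1503 and 2009 differed between replicates by more than 0.3, with SDs of 0.258 and 0.295. Upstream of the sites, at 15 to 19 reads in replicate 2, the GGACA positions 196 and 516 gave 0.333 and 0.231, so 5 of the 6 GGACA positions of this transcript were under 0.5 in replicate 2. In the same stretch the GGACT at position 717 gave 0.143 in replicate 1 and 0.0769 in replicate 2, and the GGACC at position 939 gave 0 in both.

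Mycl (chromosome 4, 122889445 to 122896278), the family member first known from lung tumours, had 6 sites on transcript ENSMUST00000030407.7 between positions 2370 and 3183, with 20 or 21 reads in replicate 2. Only 2 of them were listed in replicate 1, each with 5 reads. The GGACA at position 2495 gave a fraction of 1 in both replicates. Position 3160, a GGACT, gave 0 in replicate 1 and 0.2 in replicate 2 (0.100 ± 0.141, SD, n = 2). The remaining 4 sites have a value in replicate 2 only: 0.950 at the GGACA of position 2998, 0.333 at the GGACA of position 3183, 0.222 at the GGACC of position 2370 and 0.125 at the GGACT of position 3142. Values therefore fell into 2 sites at or above 0.95 and 4 at or below 0.333.

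Myc (chromosome 15, 61857240 to 61862223), the founding member of the family, had no site. Its 14 positions were listed in replicate 2 alone, 9 on transcript ENSMUST00000161976.7 with 5 or 6 reads and 5 on ENSMUST00000159327.1 with 7 to 9 reads. The fractions ran from 0.2 to 1, and at this depth a single fraction has no check in the other library.

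Max (chromosome 12, 76984043 to 77008975) encodes the obligate partner. Its 7 sites lie on transcript ENSMUST00000082136.6 between positions 260 and 1201, at 24 to 26 reads in replicate 2 and 6 or 7 in replicate 1. The 3 GGACA sites were high in both libraries. Position 781 gave 1 and 0.952 (0.976 ± 0.0337, SD, n = 2), position 903 gave 1 in both, and position 1201 gave 0.833 and 0.682 (0.758 ± 0.107, SD, n = 2).

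The other sites of Max were low. The GGACT at position 1040 gave 0 in both replicates, at coverages of 7 and 26 reads. The AGACT sites at positions 566 and 725 gave 0 in replicate 1, at a coverage of 6 reads each, and 0.375 and 0.238 in replicate 2. The GGACC at position 260 was listed in replicate 2 alone, with 0.0833. In neither replicate did the A-ending and the other sites of Max overlap.

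**Figure D2:**
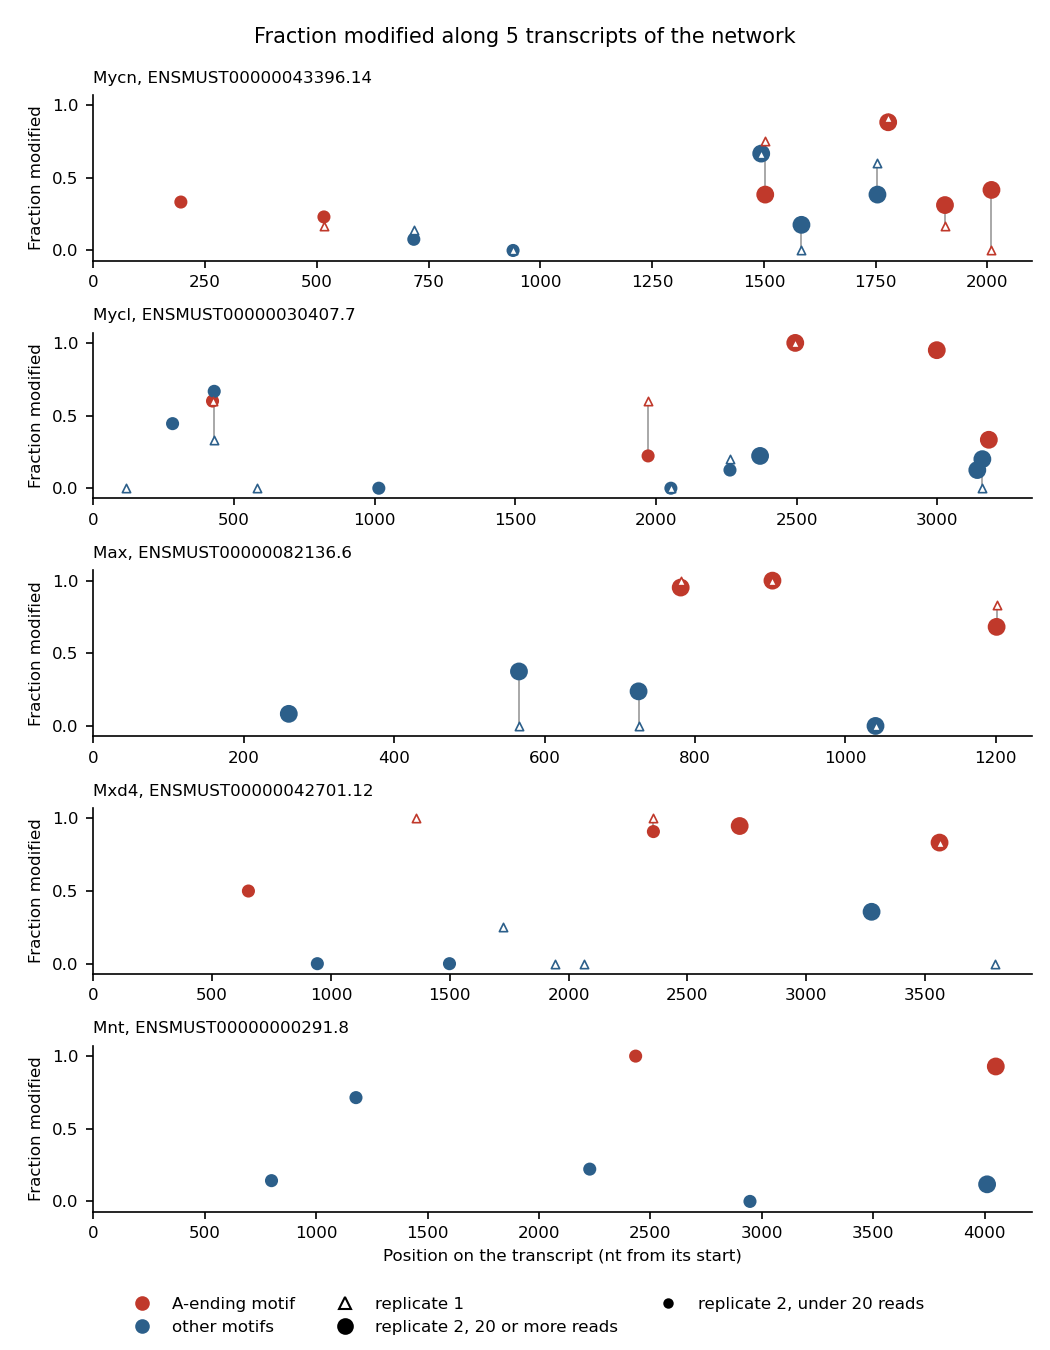
Fraction modified (vertical axis, 0 to 1) against position on the transcript in nucleotides for Mycn, Mycl, Max, Mxd4 and Mnt. Circles are replicate 2, large from 20 reads, triangles are replicate 1, grey lines join the replicates, and red marks the A-ending motif. Red and blue large circles separate in Max, at 0.682 and above against 0.375 and below, and overlap in Mycn.

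Among the repressors that compete for MAX, Mxd4 (chromosome 5, 34331227 to 34345064) had 3 sites on transcript ENSMUST00000042701.12. The GGACA at position 3561 gave 0.833 in both replicates, with 9 and 22 reads. The GGACA at position 2720 gave 0.947 and the GGACC at position 3275 gave 0.357, both in replicate 2 alone. Below the minimum, the GGACA at position 2357 gave 1 in replicate 1 with 6 reads and 0.909 in replicate 2 with 16. These 3 GGACA positions were above 0.8 wherever they were listed. Of the remaining GGACA positions of this transcript, position 653 gave 0.5 with 9 reads in replicate 2 and position 1357 gave 1 with 5 reads in replicate 1.

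Mnt (chromosome 11, 74721746 to 74736551), a repressor present in both dividing and resting cells, was listed in replicate 2 alone. Its 2 sites are 39 nt apart on transcript ENSMUST00000000291.8. The GGACC at position 4011 gave 0.118 and the GGACA at position 4050 gave 0.929, each at a coverage of 20 reads. Of its 5 shallower positions, the GGACA at position 2434 gave 1 at a coverage of 13 reads and the AGACT at position 1179 gave 0.714 at one of 8 reads. Position 800, a GGACT, and the GGACC at positions 2228 and 2947 lay between 0 and 0.222.

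Mxd3 (chromosome 13, 55472981 to 55477636), the MXD member expressed in cycling cells, had 5 positions in replicate 2, each with 5 reads and fractions from 0 to 1. Mlx (chromosome 11, 100978103 to 100983033) had 4 positions with 6 reads each in replicate 1, on transcript ENSMUST00000107302.7, and 1 position with 5 reads in replicate 2, on another transcript, ENSMUST00000017945.14. No position of Mlx could thus be compared between libraries.

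Across the 25 sites the fractions divided by motif. A fraction of at least 0.5 was seen in replicate 2 at 10 of them, against 37.5% of all sites. The A-ending motif made up 13 of the 25 sites (52.0%), against 35.6% of all sites. The median fraction in replicate 2 was 0.882 at the 13 A-ending sites and 0.211 at the 12 others, a gap of 0.671. The same gap over all sites of replicate 2 was 0.429. Of the A-ending sites, 9 of 13 reached 0.5, against 64.1% of all A-ending sites. Of the others, 1 of 12 did, against 22.8%, and this was position 1494 of Mycn.

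The gap was also present in replicate 1. At the 16 sites listed in both libraries, the medians in replicate 1 were 0.833 at 9 A-ending sites and 0 at 7 others. In replicate 2 they were 0.833 and 0.238 at the same sites. The gap was 0.833 and 0.595 (0.714 ± 0.168, SD, n = 2), several times its SD, while an exact paired permutation test over the 2 replicates gave p = 0.5, the smallest value this design allows (two-sided). Over all sites listed in both, the gap was 0.462 in replicate 1 and 0.441 in replicate 2.

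The gap differed between genes, and in Mycn and Mycl its size depended on the minimum of 20 reads. In replicate 2 the A-ending median exceeded that of the others by 0.792 in Max and 0.750 in Mycl, and by 0.0161 in Mycn. In replicate 1 Mycn had a gap of -0.142. Among 395 genes with at least 3 A-ending and 3 other sites on 1 transcript, the median gap was 0.381 (interquartile range 0.173 to 0.563). A gap at or below that of Mycn was seen in 12.2% of them, one at or above that of Max in 2.53% and one at or above that of Mycl in 5.57%. With a minimum of 10 reads, chosen after seeing the data, the gap of Max stayed at 0.792, that of Mycl was 0.438 and that of Mycn was 0.182, and in replicate 1 the gap of Mycn turned to 0.0238. Among the 862 genes that then had 3 positions of each kind, 25.5% were at or below Mycn, 3.36% at or above Max and 42.8% at or above Mycl.

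Max and Mycn were then set side by side, a comparison chosen after their values were seen. The mean fraction at A-ending sites was 0.944 in replicate 1 and 0.878 in replicate 2 for Max, and 0.456 and 0.499 for Mycn. The difference of 0.434 ± 0.0771 (SD, n = 2) was several times its spread between replicates. The exact paired permutation test again gave p = 0.5, its smallest value. Single sites overlapped, since position 1778 of Mycn lay above position 1201 of Max in both libraries. At the other motifs the sign turned: the mean was 0 and 0.204 for Max, and 0.422 and 0.409 for Mycn. A minimum of 10 reads adds positions 717 and 939 of Mycn and, for Max, position 1051 of its second transcript, ENSMUST00000110395.10. That position gave 0 in both replicates and is the counterpart of position 1040, so Max counts this stretch on both transcripts. These means of Mycn were then 0.282 and 0.261, against 0 and 0.153 for Max. Over all its sites in replicate 2 Mycn averaged 0.461, Mycl 0.472 and Max 0.476, a range under the SD of Max between replicates (0.0488) and above that of Mycn (0.0133). The SD of Max rests on the 6 of its 7 sites listed in both replicates, with a mean of 0.541 in replicate 2. The mean was 0.523 over the 2 sites of Mnt and 0.713 over the 3 of Mxd4. These means pool motifs of different levels, and the A-ending sites were 4 of 7 in Mycn, 3 of 6 in Mycl, 3 of 7 in Max, 1 of 2 in Mnt and 2 of 3 in Mxd4, so they give no order of the genes at equal motif.

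**Figure D3:**
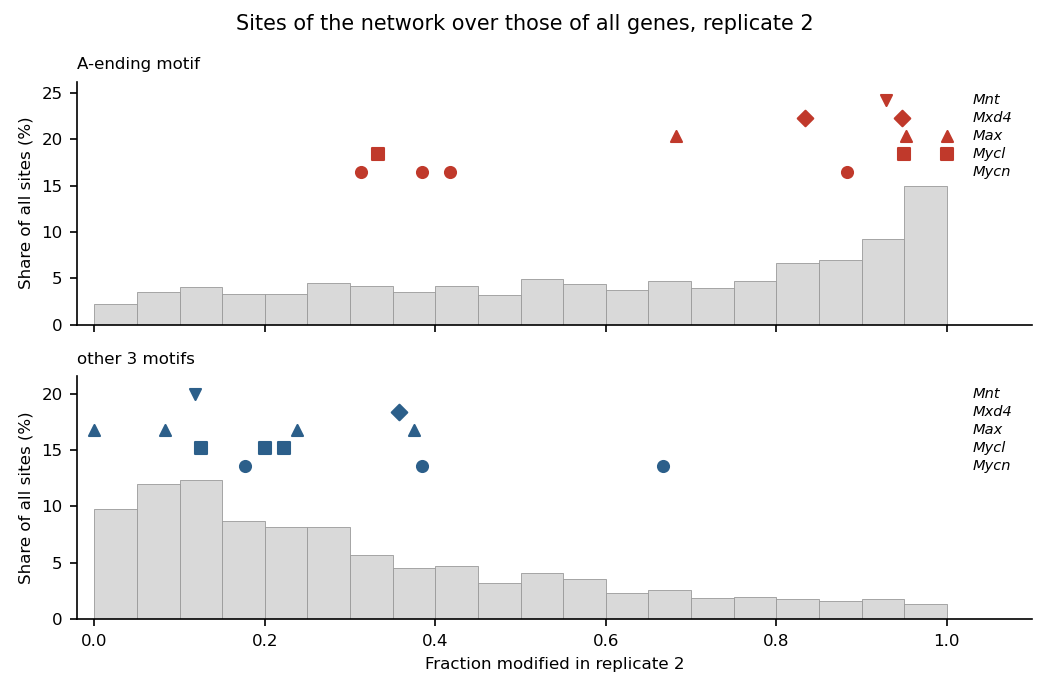
Fraction modified in replicate 2 at the 25 sites of the network (symbols, 1 row per gene, height without meaning) over the distribution of all sites of the series (grey bars, percent of sites per bin), with the A-ending motif above and the other 3 motifs below. Among the A-ending sites, 3 of the 4 of Mycn and 1 of Mycl lie under 0.5, and the other 9 lie at 0.682 or above.

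Pooled over genes, the replicates differed at these sites about as much as at other sites of their depth. At the 16 sites with both values the difference had a root mean square of 0.205 and a median of 0. Replicate 2 gave the higher value at 6 of them, the lower at 5 and the same at 5. Over 2173 sites of all genes with 5 to 12 reads in replicate 1 and 20 to 26 in replicate 2, it was 0.210 in root mean square. The genes lay on both sides of their depth. Mycn, with 11 or 12 reads in replicate 1, had 0.241, against 0.189 over the 792 of these sites with 10 to 12 reads there. Max had 0.193 and Mycl 0.141 at its 2 sites, against 0.220 over the 1381 with 5 to 9 reads. The 1 site of Mxd4 did not differ. The libraries were more than 0.2 apart at 5 of the 16 sites, against 28.9% of those 2173. These 5 were positions 566 and 725 of Max and positions 1503, 1754 and 2009 of Mycn. At the remaining 11 sites the libraries lay within 0.2 of each other. Of the 41 and 85 values of the network in the 2 replicates, 68.3% and 47.1% are whole multiples of 1 over the coverage, to the last deposited decimal, against 39.4% and 36% of all values.

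Several genes were listed on 2 transcripts, which gave a further reading of the same stretch. Positions of the same motif were paired at the most frequent difference in position. In Max this was 11 nt between ENSMUST00000082136.6 and ENSMUST00000110395.10 (6 pairs in replicate 2), in Mycl 208 nt between ENSMUST00000030407.7 and ENSMUST00000106252.8 (8 pairs), in Myc 176 nt (5 pairs) and in Mycn 149 nt (2 pairs). No other difference occurred more than 1 time within a gene. That paired positions are the same base is inferred from this constant difference, and whether a read could be counted on both transcripts is not stated.

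The pattern of Max was much the same on both transcripts in replicate 2. The GGACA sites gave 0.952, 1 and 0.682 on the first transcript, and 1, 0.933 and 0.833 on the second, at coverages of 16 to 18 reads. The GGACT at position 1040 gave 0 on both, the AGACT at position 725 gave 0.238 and 0.167, and the GGACC at position 260 gave 0.0833 and 0. The root mean square difference between the transcripts was 0.0834. No difference exceeded 0.152.

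In Mycl some pairs were alike and 3 of 8 differed by more than 0.2. The GGACA pairs at positions 2495 and 2998 gave 1 and 0.950 on the first transcript and 1 on the second, at coverages of 13 and 15 reads. The GGACA at position 3183, low for its motif, gave 0.333 and 0.5. The GGACT pairs at positions 3142 and 3160 gave 0.125 and 0.2 on the first and 0.375 and 0.167 on the second. Among the shallower pairs, the GGACT at position 430 gave 0.667 and 0.333, and the GGACA at position 1972 gave 0.222 and 0.5. The root mean square difference was 0.188 over the 8 pairs. In Mycn the GGACA sites at positions 1905 and 2009 gave 0.313 and 0.417 on the first transcript and 0.5 and 0.6 on the second, at a coverage of 6 reads each. Both were thus lower on the deeper transcript.

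Myc varied most. Its 5 pairs, at 6 to 9 reads, had a root mean square difference of 0.356, and the GGACA at position 1649 of ENSMUST00000161976.7 gave 0.333 against 1 at its counterpart. The GGACT at position 1530 and the GGACA at position 1560, 30 nt apart, gave 0.333 and 1 on that transcript, and 0.2 and 0.714 on the other. Over all 21 pairs of the network in replicate 2, the root mean square difference was 0.221, and 6 pairs differed by more than 0.2, against 31.3% of 1864 pairs in 438 other genes. The latter pairs were limited to the coverages of the network, up to 26 reads on the first transcript and 18 on the second, and to genes with at least 3 pairs, where 2 were enough for the network.

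**Figure D4:**
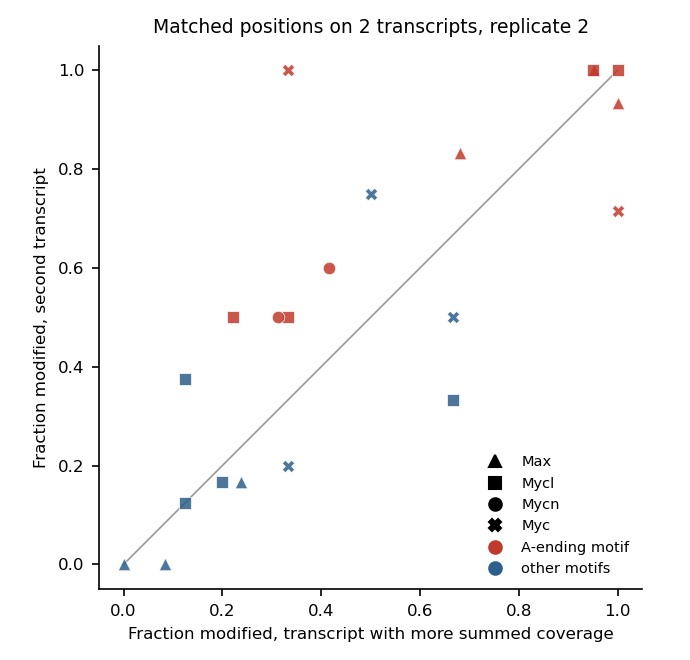
Fraction modified in replicate 2 on the transcript with more coverage summed over its listed positions (horizontal axis; in Myc it has fewer reads at each paired position) and on the second transcript (vertical axis) for 21 paired positions of Max, Mycl, Mycn and Myc, with the line of equality. The pairs of Max lie within 0.152 of the line, while the pair of Myc at 0.333 and 1 lies farthest from it.

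Neighbouring positions were also compared. In Mycn the AGACT at position 1494 and the GGACA at position 1503 are 9 nt apart, and the second was lower by 0.282 in replicate 2 and higher by 0.0833 in replicate 1. The GGACT at position 1754 and the GGACA at position 1778, 24 nt apart, kept their order, the second being higher by 0.498 in replicate 2 and by 0.309 in replicate 1. In Mycl the GGACT pair at positions 3142 and 3160, 18 nt apart, gave 0.125 and 0.2 in replicate 2, while its counterpart on ENSMUST00000106252.8 had the opposite order, with 0.375 at position 2934 and 0.167 at position 2952. At the GGACA of position 424 and the GGACT of position 430, 6 nt apart, the second was higher by 0.0667 in replicate 2 and differed by -0.267 in replicate 1.

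Coverage rose toward the 3′ end, so the minimum of 20 reads kept downstream positions. On 8 of the 10 member transcripts with at least 5 positions in replicate 2, the last listed position was deeper than the first, against 77.9% of 4398 transcripts of all genes. In Mnt coverage went from 8 reads at position 800 to 20 at position 4050. In Mycl it went from 10 reads at position 282 to 21 at position 3183, and in Mycn from 15 at position 196 to 24 at position 2009. The exceptions were the deeper transcript of Max, with 25 reads at position 260 and 24 at position 1201, and the transcript of Mxd3, with 5 reads at each of its 5 positions.

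The libraries also differed in which positions were listed. In Mxd4 each replicate listed 7 positions and only 2 were shared. Of 5 positions of replicate 1 that lie between listed positions of replicate 2, 4 were not listed there (1357, 1723, 1944 and 2067), although the listed positions of this transcript had 9 to 22 reads in replicate 2. Over all genes this was so for 25.4% of such positions. In Mycl 7 of 14 positions of replicate 2 that lie between listed positions of replicate 1 were not listed in replicate 1, against 24.8% over all genes, while in the opposite direction 1 of 10 was not listed. Over the 9 genes together, 5 of 30 such positions of replicate 1 (16.7%) were not listed in replicate 2, and 10 of 31 of replicate 2 (32.3%) were not listed in replicate 1. In Mycn and Max no flanked position was missing in either direction. The reason for a missing entry is not given in the tables.

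The partners, regulators and targets of the network were read from a list of 50 further genes. Of these, 45 were listed in replicate 2 and 32 of the 45 had a site (71.1%), against 48.6% of all genes listed there. Their 141 sites had a median fraction of 0.399 in replicate 2, against 0.345 over all sites. The A-ending motif made up 44.7% of these sites, against 35.6% of all sites. The A-ending motif again stood higher, with medians of 0.641 and 0.218. Over all sites the same medians were 0.667 and 0.238, so at equal motif the list did not stand higher. Within the network itself, Mxi1 and Mlxip were listed in replicate 2 at no more than 9 and 10 reads, and Mxd1 and Mlxipl were not listed.

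All 14 textbook targets of MYC were listed in replicate 2 and had a site there, and 11 of them had one with 20 reads in both replicates, against 23.4% of all genes listed in replicate 2. Ccnd2, a D-type cyclin, had 5 such sites with a mean fraction of 0.276 ± 0.0527, and Nme1, a nucleoside diphosphate kinase, had 5 with 0.379 ± 0.0219 (each SD, n = 2). Among cofactors of MYC 6 of the 10 listed had a site. Wdr5, a scaffold that helps to recruit MYC to chromatin, had 3 sites in both replicates with a mean of 0.304 ± 0.0714, and Ruvbl1, an ATPase of chromatin remodelling complexes, had 2 with 0.493 ± 0.0106 (each SD, n = 2).

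Of the partners of MGA and the MXD repressors, 7 of the 10 listed had a site. Tfdp1, the dimer partner of E2F factors, had 2 sites in both replicates with a mean of 0.807 ± 0.0407, and Sin3b, a corepressor bound by MXD proteins, had 2 with 0.499 ± 0.0424 (each SD, n = 2). Of the regulators of MYC stability, 5 of the 9 listed had a site. These sublist counts stand against the same 48.6%. Aurka, a mitotic kinase that stabilises MYCN, had 2 in both replicates with a mean of 0.525 ± 0.000601 (SD, n = 2). Fbxw7, which marks MYC proteins for degradation, was not listed. The means of the genes named from these sublists pool motifs. A-ending sites were 3 of 5 in Ccnd2, 1 of 5 in Nme1, 0 of 3 in Wdr5 and 1 of 2 in Ruvbl1. They were 2 of 2 in both Tfdp1 and Sin3b and 0 of 2 in Aurka, so the means give no order of these genes at equal motif. At the 43 sites of the wider list with at least 20 reads in both, the libraries differed by 0.101 in root mean square, against 0.205 at the 16 shallower sites of the 9 genes.

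Genes most like Mycn were sought among 3919 genes with a site, as those with the same number of sites of each motif on 1 transcript, which 4 genes shared. The closest in mean fraction in replicate 2 were Trpc4ap with 0.479, Ctsd with 0.545 and Atad3a with 0.580, against 0.461 for Mycn. At their A-ending sites these 3 averaged 0.758, 0.643 and 0.623, against 0.499 for Mycn, and the remaining gene of the 4 averaged 0.383.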

How the data were processed

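Of the tables deposited, the plus table of each of the 2 libraries was used, each listing a transcript, a position, a motif, a fraction modified and a coverage. Coverage, as deposited, is a count of reads in whole numbers, and the deposited fraction is the authors' fraction modified, whose denominator is not stated in the sources used here. Per the submitters' processing notes the build was mm10. The base caller, aligner, modification caller and any threshold are not given in the sources used here. The deposited gene starts lay 46774 to 154647 bases from those of RefSeq for GRCm38.p6 in the 8 listed genes, so they were printed as deposited, with their build not named, and combined with nothing. The minus tables hold no position of these genes.

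Sites of 20 or more reads in replicate 2 were matched on transcript and exact position, with Python 3.11.15, pandas 2.3.3 and scipy 1.17.1. The code was checked on simulated data. The planned requirement of 20 reads in both replicates left no site, so differences between replicates use sites listed in both. Named by rule were all 9 genes, the highest, lowest and deepest sites of each (all sites for 5 or fewer), 2 genes per sublist with the most sites in both replicates, and the 3 genes most like Mycn (1 gene so named is not reported here); the remaining sites of Mycn, Mycl and Max and their shallower positions were added after their values were seen. Members and lists were chosen with earlier results of these data known. Coverage minimums of 5, 10 and 50 reads, 1 transcript per gene, matching within 5 nt and leaving out a replicate were tried. Transcript sequence was not used here.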

Additional observations from a re-analysis of the deposited data

How the results depend on the processing

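The number of sites depended on the minimum coverage: replicate 2 held 85 positions of the network without one, 54 with 10 reads and 0 with 50 reads, against 25, in 8, 5 and 0 genes, against 5. In both replicates 30 positions were found without a minimum and 10 with 10 reads, against 0. With 50 reads 19 genes of the wider list had a site in place of 32. With 10 reads and without a minimum alike, the gap of Mycn was 0.182 in replicate 2 against 0.0161 and turned to 0.0238 in replicate 1 against -0.142, and the gap of Mycl was 0.438 against 0.750, while that of Max stayed at 0.792. The difference of Mycn from Max at the other motifs was 0.195 against 0.314 with either, and ran from 0.205 to 0.422 without 1 replicate. With either lower minimum Max was read on 2 transcripts. At the other motifs position 1051 then counts beside its counterpart 1040, and at A-ending sites position 1212 beside 1201. For the network as a whole, the median fraction in replicate 2 ran from 0.375 to 0.4, the gap between motifs from 0.532 to 0.671, and the root mean square difference between replicates from 0.183 to 0.205. Within this last range, the value with 10 reads in both replicates, 0.204, rests on 10 positions of Mycn alone. With 50 reads no median, gap or difference could be computed. Without 1 replicate, the gap at sites listed in both ran from 0.595 to 0.833 and the median fraction from 0.401 to 0.633. With n = 2 such a value cannot leave its mean by more than 1 SD, so this says nothing about stability. The difference of Mycn from Max at A-ending sites ran from -0.491 to -0.379; its alternatives, those of the other motifs, the gaps of single genes and the wider list and the use of sites listed in replicate 1 at any depth were chosen after seeing the data. The samples form 1 group, so no fit could pair samples across groups; motifs and genes were paired within each of the 2 libraries, in exact tests that cannot give a p below 0.5. Isoform and neighbour values were not recomputed. Sites of replicate 1 had coverages of 5 to 12 reads, and the number of reads behind a fraction is not known; at these coverages sites of all genes differed by 0.210 in root mean square.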
